A study of Mus musculus with 12 samples.

Results

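Transcripts of 10 integrin subunit genes, Itgb1, Itgb2, Itgb3, Itgb7, Itgb8, Itga4, Itga6, Itgae, Itgal and Itgav, were followed through 5 sorted populations of mouse CD4 T cells on 12 Affymetrix arrays. The genes were chosen by their measured signals in these data, Itgb3 and Itgb7 for signals that were lower in Venus-high than in Venus-low follicular helper T cells (Tfh, the T cells that help B cells in germinal centres). The probe annotation assigned 27 of the 45101 probe sets to these genes, from 1 each for Itgb2, Itgb7 and Itgb8 to 6 for Itgb1. Of the 27, 20 reached a log2 signal of 5 on at least 2 arrays and were tested among 17901 such probe sets, and each of the 10 genes had at least 1 of them.

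Per the sample labels, every population came from mice that carried 1 copy of a Venus reporter at S1pr2 (S1pr2V/+; S1pr2 encodes a receptor for sphingosine-1-phosphate) and had received CGG in CFA under the skin 10 days before cells were sorted. From lymph nodes, CD4+ CXCR5+ PD1-high CD44-high cells were divided into Venus-high Tfh (3 arrays) and Venus-low Tfh (3 arrays), CXCR5+ PD1-intermediate CD44-high cells formed the PD1-intermediate Th group (2 arrays), and CXCR5-low PD1-low CD44-high cells the PD1-low Th group (2 arrays). Naive CD4 T cells (CD44-low CD62L-high, 2 arrays) came from spleen, so that this group also differs in organ, and the labels do not settle whether their donors had been immunized, since the series design, unlike the sample labels, also speaks of control mice. Each array held RNA of cells pooled from 2 to 6 mice, the pooled mice were not measured separately, and p-values cover only the spread between pools. The arrays read bulk RNA, in which fewer cells that hold a transcript and less transcript per cell cannot be told apart.

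Integrins are cell surface receptors made of an alpha and a beta chain, and the pairing decides what the cell can hold on to. In T cells the Itgal and Itgb2 products form LFA-1, which binds ICAMs, the Itga4 product pairs with that of Itgb1 to bind VCAM-1 and fibronectin or with that of Itgb7 to bind the gut addressin MAdCAM-1, and the Itgae product pairs with that of Itgb7 to bind E-cadherin. The Itga6 chain with that of Itgb1 binds laminin, and the Itgav chain joins those of Itgb3 or Itgb8, which bind RGD ligands and, for Itgb8, latent TGF-beta.

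The 5 populations differed in the signals of these chains. Itgb3 had a log2 signal between 12.3 and 12.6 in naive and PD1-low Th cells, was 31.3-fold lower in PD1-intermediate than in PD1-low Th cells, and lay below log2 5 on all 3 Venus-high arrays. Itgb7, Itga6 and, within batches of arrays, Itga4 were also lower in Venus-high Tfh than in PD1-low Th and naive cells. Itgal and Itgb1 went the other way against naive cells, 3.08-fold and 19.0-fold higher in Venus-high Tfh at the probe set of each with the highest mean, while the log2 signal of Itgb2 stayed between 13.1 and 13.7 on every array. Itgae was read in Venus-low Tfh, PD1-intermediate and PD1-low Th cells and below log2 5 in Venus-high Tfh and naive cells.

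The stretch upstream of the start was at hand for 5 of the 10 genes (Itga4, Itgav, Itgb1, Itgb7 and Itgb8), as RefSeq has it on GRCm38.p6. Those of Itga4 and Itgb7, whose products form 1 receptor, are shown because they held the most matches to the motifs searched, a choice made after the matches were counted. Each run gives the 250 bases before the start, read 5′ to 3′ on the gene's strand, and capitals mark the motifs found on either strand: TGTGGT, the core bound by RUNX factors, CAGCTG, an E-box, and CACCC, a box of the kind bound by KLF factors.
Itga4, chr2:79255176-79255425, plus strand: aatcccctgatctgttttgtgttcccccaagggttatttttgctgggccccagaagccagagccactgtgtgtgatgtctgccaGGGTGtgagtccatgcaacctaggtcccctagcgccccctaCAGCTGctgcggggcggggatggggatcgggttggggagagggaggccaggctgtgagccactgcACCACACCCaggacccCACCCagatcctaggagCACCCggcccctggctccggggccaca
Itgb7, chr15:102231936-102232185, minus strand: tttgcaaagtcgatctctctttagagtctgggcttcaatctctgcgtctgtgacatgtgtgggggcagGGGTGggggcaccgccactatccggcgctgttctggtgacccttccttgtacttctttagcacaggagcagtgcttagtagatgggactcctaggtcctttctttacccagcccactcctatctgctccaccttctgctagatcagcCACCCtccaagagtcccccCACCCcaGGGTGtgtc

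The Itga4 stretch held 1 RUNX core, 60 bases before the start and overlapping a CACCC box, 1 E-box 125 bases before it, and 4 CACCC boxes. The Itgb7 stretch held 4 CACCC boxes, at 9 to 182 bases before the start, and neither of the other motifs. The stretches not shown held 2 CACCC boxes for Itgb1, 2 for Itgb8 and 1 for Itgav, and no RUNX core or E-box. Among 32851 stretches of this length, 14% held the RUNX core, 13% the E-box, 52% at least 1 CACCC box and 2.14% at least 4. These matches describe letters and not binding.

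The arrays fell into 3 batches by their signal quantiles, which the labels do not name: batch 1 with replicate 1 of Venus-high, Venus-low and naive cells, batch 2 with replicate 2 of the same groups and PD1-low replicate 1, and batch 3 with replicate 3 of both Tfh groups, both PD1-intermediate arrays and PD1-low replicate 2. Their upper quartiles were 8.50 to 8.55, 8.68 to 8.76 and 9.39 to 9.42. Of all probe sets, 3315 in batch 2, 542 in batch 1 and 234 in batch 3 stood more than 3 log2 units apart from both other batches in 1 direction after allowing for group, and are called displaced. They include 6 of the 20 tested integrin probe sets, 2 of Itga4, 3 of Itgav and the 1 of Itgb8. Whether the rows of the batch 2 arrays carry the right probe set names throughout the deposited table was not tested, so the batch 2 values printed for Itga4, Itgav and Itgb8 may belong to other probe sets. S1pr2 itself ran from log2 12.6 to 13.1 in Venus-high Tfh down to 5.78 to 6.91 in naive cells, in the order of the gates. The median of all tested probe sets was off 0 by -0.44 for Venus-low Tfh minus PD1-intermediate Th, 0.27 for PD1-intermediate minus PD1-low, 0.33 for PD1-low minus naive, -0.17 for Venus-high minus PD1-low and 0.18 for Venus-high minus naive, and between -0.03 and 0.02 in the 6 comparisons with a batch term, so differences are to be read against these shifts. All 8 measured T helper markers reached log2 5 in each lymph node group and 7 of them in naive cells. None of 9 platelet or 8 myeloid markers reached log2 5 on any array, nor did the B cell markers Cd79a, Ms4a1 and Pax5, whereas Cd22 ran from 12.1 to 13.0 in Venus-high Tfh down to 2.39 to 3.18 in naive cells and Cd79b reached 8.99 in PD1-low Th. Of the 4 CD8 T and NK markers measured, none of the 12 arrays reached log2 5 for Cd8a or Ncr1, whereas Cd8b1 read 6.35 to 6.62 in PD1-low Th and 2.51 to 3.13 in Venus-high Tfh, and Gzma 7.06 to 7.72 in Venus-high Tfh, 7.95 to 9.77 in Venus-low Tfh, 4.69 to 5.19 in PD1-low Th and 2.43 to 2.76 in naive cells. The linear signals of these 4 summed to 152 to 226 in Venus-high Tfh, 273 to 888 in Venus-low Tfh, 196 to 337 in PD1-intermediate Th, 117 to 146 in PD1-low Th and 23.4 to 52.2 in naive cells, and the part of such cells in the integrin values was not tested.

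Calls below use an adjusted p under 0.05 from 1 limma fit of all 12 arrays, and counts are of probe sets in either direction. Between Venus-high and Venus-low Tfh, the contrast on which members were chosen, 1 of the 20 integrin probe sets was called against 0.609% of all, and 4 against 11.6% with the batch as a term, and nothing is read from these counts. Between Venus-low Tfh and PD1-intermediate Th 0 of 20 were called (0.268% of all), 2 at an unadjusted p under 0.05, and 0 (3.05%) with the batch term, 3 unadjusted. PD1-intermediate and PD1-low Th differed at 2 (2.49%) and, with the batch term, 6 (9.07%) of the 20. PD1-low Th and naive cells differed at 0 (0.0335%), 2 unadjusted, and 0 (0.369%), again 2 unadjusted. The comparisons of Venus-high Tfh with PD1-low Th and with naive cells share the Venus-high arrays with each other and with the contrast that chose Itgb3 and Itgb7. The differences of these 2 genes from Venus-high Tfh are therefore given without a test, and the counts that follow leave them out. Of the other 18 probe sets, 5 differed between Venus-high Tfh and PD1-low Th, 2 higher and 3 lower, against 7.62% of all probe sets, and 13 against 28.7% with the batch term. The 5 were both probe sets of Itga6, both of Itgal and 1 of Itgae. Both Itgae probe sets were among the 13, though no test of Itgae is read, as given below. Venus-high Tfh and naive cells differed at 6 of the 18, 4 higher and 2 lower, against 9.52%, and at 10 against 34.3% with the batch term. The 6 were 2 probe sets each of Itgal, Itgb1 and Itga6, so these counts are not of separate genes. Of the batch-term calls, 2 in each of these comparisons were of displaced Itga4 probe sets, as was 1 of the 6 between PD1-intermediate and PD1-low Th. The other genes were also chosen with earlier results of these data known, so these counts only describe them.

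The median difference of these 18 probe sets was 0.21 between Venus-high Tfh and PD1-low Th and 0.23 between Venus-high Tfh and naive cells. Of all calls, 1179 were higher and 525 lower in Venus-high Tfh than in naive cells without the batch term, and 2918 and 3214 with it. For PD1-intermediate minus PD1-low Th these were 334 and 111 without it and 1012 and 611 with it. Of 13 single differences followed below that passed, 0 passed without the 4 batch 2 arrays and 2 in fits of only the groups compared, the 2 being Itgb1 against naive cells, with every direction kept though with fewer arrays.

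**Figure D1:**
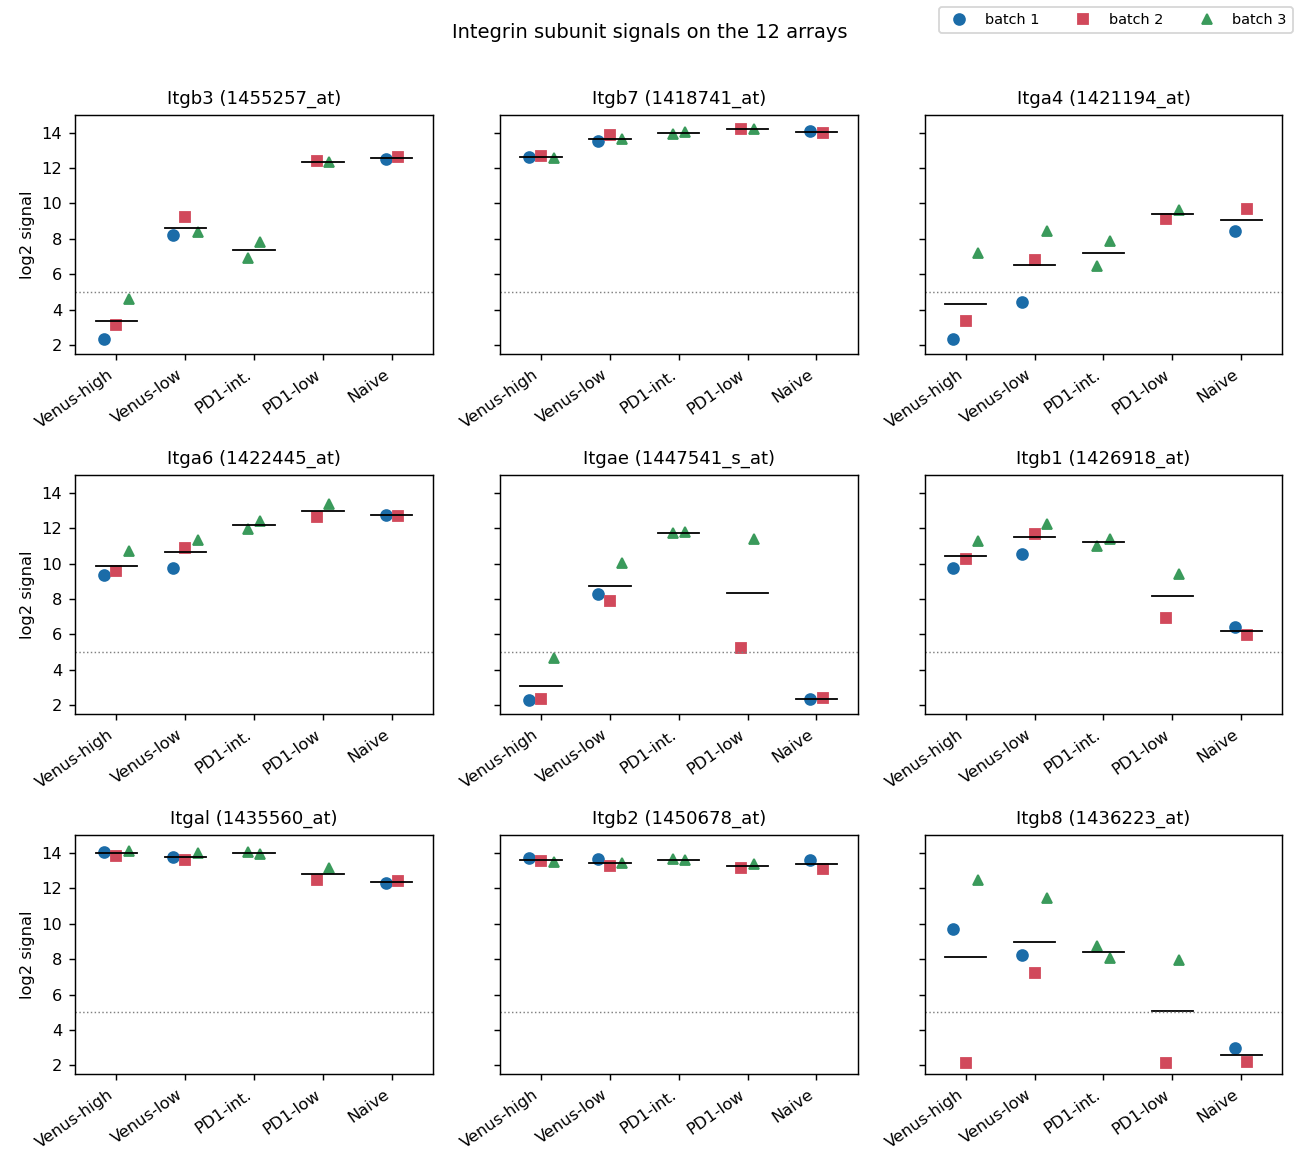
Log2 signal (y axis) of 1 probe set for each of 9 integrin subunits in the 5 sorted groups (x axis), with each point 1 array, its colour and shape the batch, the bar the group mean and the dotted line log2 5. Itgb3 lies below the line on the 3 Venus-high arrays and above 12 in PD1-low Th and naive cells, and Itgb2 stays between 13.1 and 13.7. For Itgb8 the batch 2 arrays of Venus-high Tfh and PD1-low Th lie below the line, as do both naive arrays.

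Itgb3 encodes the beta chain of the vitronectin receptor, best known from platelets and osteoclasts. Its probe set 1455257_at read log2 2.33, 3.16 and 4.61 on the Venus-high arrays and 8.20, 9.22 and 8.40 on the Venus-low arrays. It read 6.94 and 7.84 in PD1-intermediate Th, 12.39 and 12.33 in PD1-low Th and 12.48 and 12.62 in naive cells. No 2 of the 5 groups overlapped, and the levels ran from naive over PD1-low Th, Venus-low Tfh and PD1-intermediate Th to Venus-high Tfh. The uppermost neighbours, PD1-low Th and naive cells, differed by -0.19 ± 0.69 (SE; adjusted p = 1), less than the error of the fit. PD1-intermediate minus PD1-low Th was -4.97 ± 0.69 (adjusted p = 0.00695), 31.3-fold, and -4.94 on the batch 3 arrays alone. That call was lost without PD1-intermediate replicate 1 (adjusted p = 0.0927) and without PD1-low replicate 1 (0.0619). Venus-low Tfh minus PD1-intermediate Th was 1.22 over all arrays and 1.01 within batch 3, given as values only.

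Against log2 5, the level below which signals were not ordered, Itgb3 was at least 12.2-fold lower in Venus-high than in Venus-low Tfh, at least 164-fold lower than in PD1-low Th and at least 188-fold lower than in naive cells. Venus-high minus Venus-low was -5.87, -6.06 and -3.79 within batches 1, 2 and 3, so the Venus-high array was the lower one in each. The other Itgb3 probe set, 1421511_at, stayed between 2.15 and 3.36 on all 12 arrays and was not tested. The platelet genes Itga2b and Pf4 were below log2 5 on every array, and the linear signals of the 9 platelet markers summed to 37.9 to 39.1 over all arrays.

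The 5 genes whose signals went most closely with Itgb3 over the 12 arrays, by Pearson r and as a description of arrays that share batches, were Prkag1 (r = 0.979), Emp3 (0.956), Ppp3ca (0.954), Smad7 (0.954) and Sfn (0.953). Smad7, an inhibitor of TGF-beta signalling, had a mean log2 signal of 9.13 in Venus-high Tfh and 12.5 in naive cells. Ppp3ca, a catalytic subunit of calcineurin, had means of 3.72 and 8.92 in these groups.

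Itgb7 encodes the beta chain of the gut-homing receptor and of the E-cadherin receptor. Its 1 probe set read log2 12.61, 12.66 and 12.57 on the Venus-high arrays and 13.52, 13.84 and 13.63 on the Venus-low arrays. It read 13.90 and 14.05 in PD1-intermediate Th, 14.18 and 14.22 in PD1-low Th and 14.09 and 14.00 in naive cells. The Venus-high arrays lay below all 9 others, the Venus-low arrays next, and the remaining groups between 13.90 and 14.22. PD1-intermediate minus PD1-low Th was -0.23 ± 0.22 (adjusted p = 0.859) and PD1-low Th minus naive 0.15 ± 0.22 (adjusted p = 0.986), each about as large as its error.

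Venus-high minus Venus-low Tfh was -0.91, -1.18 and -1.05 for Itgb7 within batches 1, 2 and 3, or 2.07-fold lower on average. Relative to the other groups, Venus-high minus PD1-low Th was -1.58 and Venus-high minus naive -1.43. The genes most like Itgb7 over the 12 arrays were Pdlim1 (r = 0.988), Anxa6 (0.982), Ccr7 (0.982), Sema4a (0.982) and 5830468F06Rik (0.974). Ccr7, the receptor that leads T cells to the T zone, had a mean log2 signal of 3.71 in Venus-high Tfh, 8.94 in Venus-low Tfh and 13.3 in naive cells.

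Itga4, the alpha chain that pairs with the Itgb7 and Itgb1 products, had 5 probe sets, of which 4 were tested and 2, 1436037_at and 1450155_at, were displaced. These 2 were read only within a batch, since 1436037_at read 9.92 to 14.0 in batches 1 and 3 but 2.55 to 8.04 in batch 2, where 1450155_at read 10.0 to 13.9. The limit on batch 2 probe set names given above holds for both.

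In batch 1, 1436037_at read 9.92 in Venus-high Tfh, 11.71 in Venus-low Tfh and 13.87 in naive cells, and in batch 3 it read 12.50 in Venus-high Tfh, 12.88 in Venus-low Tfh, 12.03 and 12.91 in PD1-intermediate Th and 14.00 in PD1-low Th. In batch 2 it read 2.55 in Venus-high Tfh, 4.06 in Venus-low Tfh, 8.04 in PD1-low Th and 8.03 in naive cells. The Venus-high array lay below the PD1-low and naive arrays in each batch, and in batch 3 it lay between the PD1-intermediate arrays. At 1450155_at the batch 2 arrays read 10.05 in Venus-high Tfh, 12.06 in Venus-low Tfh, 13.88 in PD1-low Th and 13.89 in naive cells, and the batch 3 arrays 6.50 in Venus-high Tfh, 7.37 in Venus-low Tfh, 6.35 and 7.19 in PD1-intermediate Th and 9.65 in PD1-low Th, while all batch 1 arrays were below log2 5. Venus-high minus PD1-low Th was thus -1.50 in batch 3 at 1436037_at, and -3.83 and -3.15 in batches 2 and 3 at 1450155_at. Venus-high minus Venus-low was -1.79 and -0.38 in batches 1 and 3 at the former and -2.01 and -0.87 in batches 2 and 3 at the latter. These within-batch values rest on 1 array a group and have no test.

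A pair of Itga4 probe sets passed the filter and were not displaced. For 1421194_at the Venus-high arrays read 2.35, 3.37 and 7.18, the PD1-low arrays 9.14 and 9.62 and the naive arrays 8.44 and 9.69. Venus-high Tfh did not overlap PD1-low or naive cells. The Venus-low arrays read 4.42, 6.79 and 8.42 and the PD1-intermediate arrays 6.49 and 7.88, and both groups overlapped Venus-high Tfh. The difference of Venus-high Tfh from PD1-low Th was -5.08 ± 1.51 and did not pass (adjusted p = 0.0916), and with the batch term it was -4.13 ± 0.73 (adjusted p = 0.00606). Against naive cells it was -4.76 ± 1.51 (adjusted p = 0.101), and -5.75 ± 0.73 with the batch term (adjusted p = 0.0012). At 1456498_at Venus-high Tfh read 6.48, 3.44 and 4.76, Venus-low Tfh 6.65, 5.06 and 4.91 and PD1-intermediate Th 3.83 and 4.43. These 3 groups overlapped, below PD1-low Th at 7.76 to 8.24 and naive cells at 7.34 to 7.70. PD1-intermediate minus PD1-low Th was -3.87 ± 0.92 there (adjusted p = 0.0829), and -3.84 ± 0.76 with the batch term (adjusted p = 0.0251). Venus-high minus PD1-low Th was -3.11 ± 0.84 (adjusted p = 0.0644), and -3.57 ± 0.67 with the batch term (adjusted p = 0.0077). All 4 tested Itga4 probe sets were thus lower in Venus-high Tfh than in PD1-low Th within each batch that held both groups. For the displaced ones the limit on batch 2 probe set names holds, and their batch-term calls are not read. Both probe sets that were not displaced were called there with the batch term. The fifth probe set, 1427615_at, stayed between 2.26 and 4.13 and was not tested.

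**Figure D2:**
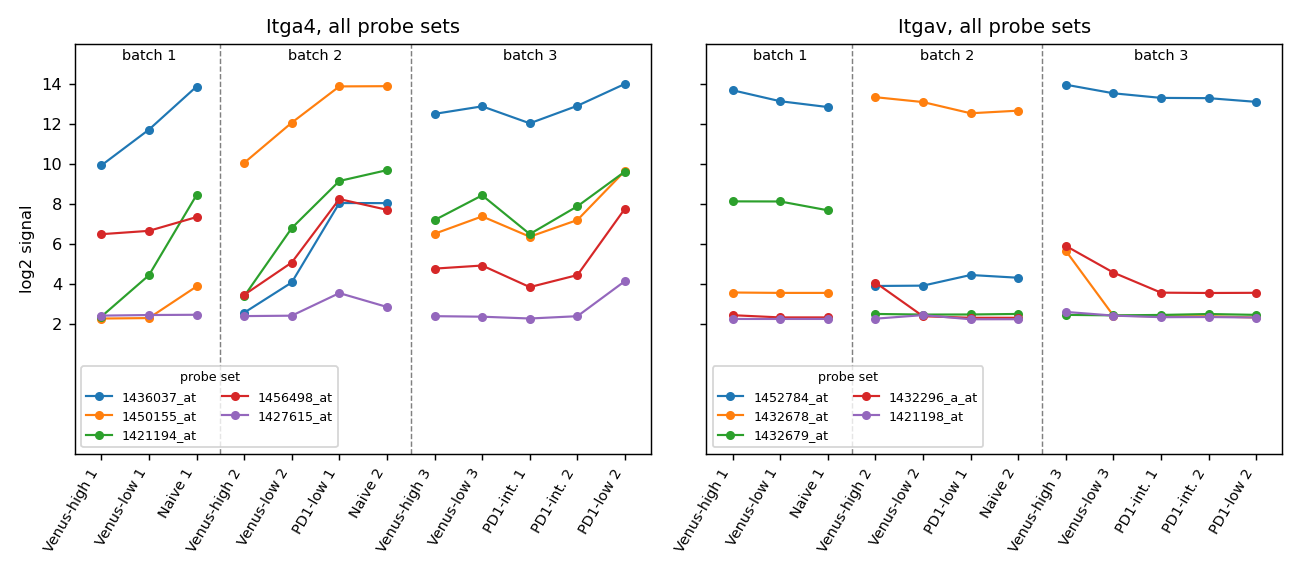
Log2 signal (y axis) of every probe set of Itga4 (left) and Itgav (right) on the 12 arrays (x axis), ordered by batch and group, with lines joining the arrays of 1 batch. Each probe set has its own scale. The uppermost Itga4 line is 1436037_at in batches 1 and 3 and 1450155_at in batch 2, and the uppermost Itgav line is 1452784_at in batches 1 and 3 and 1432678_at in batch 2.

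Itgae encodes the alpha chain of the E-cadherin receptor, the marker CD103. Its probe set 1447541_s_at read log2 2.31, 2.38 and 4.67 on the Venus-high arrays and 8.29, 7.89 and 10.01 on the Venus-low arrays. It read 11.70 and 11.76 in PD1-intermediate Th, 5.24 and 11.41 in PD1-low Th and 2.34 and 2.42 in naive cells. Venus-high and naive arrays overlapped below log2 5, and every other array was above it. The second probe set, 1449216_at, read 2.41, 2.28 and 3.13 in Venus-high Tfh, 4.83, 9.94 and 8.52 in Venus-low Tfh, 10.56 and 10.53 in PD1-intermediate Th, 7.47 and 10.27 in PD1-low Th and 2.44 and 2.31 in naive cells. PD1-intermediate Th had the highest mean at both probe sets, while Venus-low Tfh and PD1-low Th, which overlapped at both, changed places, and at the second Venus-low replicate 1 was also under log2 5. The PD1-low arrays differed from each other by more than 2 log2 units at both probe sets, the batch 2 array being the lower.

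Both Itgae probe sets passed the filter through arrays of Venus-low Tfh, PD1-intermediate and PD1-low Th alone, so no test of Itgae is read. Venus-high minus PD1-low Th was -6.27 ± 1.35 at Itgae 1449216_at, or at least 14.6-fold lower against log2 5. Setting values below log2 5 to 5 made this difference -3.87. At 1447541_s_at the difference was -5.21 ± 1.58, and with the batch term it was -4.82 ± 0.86. Venus-high minus naive was 0.74 ± 1.58, with both groups below log2 5 and no fold given. Venus-high minus Venus-low Tfh was -5.97, -5.51 and -5.34 at 1447541_s_at within batches 1, 2 and 3, and over all arrays Venus-high Tfh was at least 13.2-fold lower against log2 5. PD1-low Th minus naive was 5.95 ± 1.73 there.

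Of 5 markers of regulatory T cells, 4 were, like Itgae, at their lowest among the lymph node groups in Venus-high Tfh, all but Ikzf2, which read log2 12.8 to 13.8 there. Foxp3, their defining factor, ranged from log2 5.73 to 6.19 in Venus-high Tfh, 10.7 to 11.2 in Venus-low Tfh, 11.0 to 11.3 in PD1-intermediate Th, 11.5 to 12.3 in PD1-low Th and 8.22 to 10.1 in naive cells. Of the 5 markers measured, 3 reached log2 5 in Venus-high Tfh and 5 in each other group, and their linear signals summed to 7376 to 14302 in Venus-high Tfh, 9794 to 19310.5 in Venus-low Tfh, 14758 to 15895 in PD1-intermediate Th, 14425 to 32981 in PD1-low Th and 2838 to 3516 in naive cells. Naive cells had Foxp3 signal with Itgae below log2 5, and the part of regulatory T cells in the Itgae values was not tested.

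Itga6, the laminin receptor chain, had its lowest mean in Venus-high Tfh at both of its probe sets. At 1422445_at the Venus-high arrays read log2 9.34, 9.59 and 10.69 and the Venus-low arrays 9.72, 10.88 and 11.35. PD1-intermediate Th read 11.96 and 12.43, PD1-low Th 12.60 and 13.37 and naive cells 12.73 and 12.71. The Tfh groups overlapped each other and lay below all 6 other arrays, and within batches Venus-high minus Venus-low was -0.39, -1.29 and -0.66. At this probe set Venus-high minus PD1-low Th was -3.12 ± 0.56 (adjusted p = 0.0102), 8.67-fold lower, and Venus-high minus naive -2.85 ± 0.56 (adjusted p = 0.0133), 7.20-fold lower. The first call was lost without PD1-low replicate 2 (adjusted p = 0.0933) and the second without naive replicate 1 (0.0856) or 2 (0.0812).

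At Itga6 1422444_at the Venus-high arrays read 5.48, 4.39 and 6.63, the Venus-low arrays 6.44, 7.40 and 7.36, PD1-intermediate Th 8.53 and 9.69, PD1-low Th 9.59 and 10.92 and naive cells 8.48 and 9.23. The order was that of the first probe set, except that PD1-intermediate Th was not below naive cells. The gap between Venus-high Tfh and PD1-low Th was -4.75 ± 0.72 (adjusted p = 0.00437), and this call held without any 1 array (adjusted p up to 0.0459). That to naive cells was -3.35 ± 0.72 (adjusted p = 0.0203), lost without Venus-high replicate 1 (0.0513) or 2 (0.0525) or naive replicate 1 (0.0723) or 2 (0.151). Venus-low Tfh minus PD1-intermediate Th was -1.54 ± 0.56 at 1422445_at (adjusted p = 0.505) and -2.05 ± 0.72 at 1422444_at (adjusted p = 0.49), so the step between these neighbours did not pass.

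Itgb1 encodes the common beta chain that pairs with the Itga4 and Itga6 products. Its probe sets 1426918_at and 1452545_a_at were high in the CXCR5+ groups and low in naive cells. At 1426918_at the Venus-high arrays read log2 9.74, 10.28 and 11.26 and the Venus-low arrays 10.52, 11.65 and 12.26. PD1-intermediate Th read 11.00 and 11.41, PD1-low Th 6.91 and 9.40 and naive cells 6.40 and 5.96. The Tfh and PD1-intermediate groups overlapped, and all 8 of their arrays lay above the PD1-low and naive arrays. Venus-high Tfh exceeded naive cells by 4.25 ± 0.79 (adjusted p = 0.0103), 19.0-fold higher, a call lost without naive replicate 1 (0.0571) or 2 (0.0811). At 1452545_a_at it was 4.20 ± 0.93 (adjusted p = 0.023), lost without Venus-high replicate 2 (0.0559) or 3 (0.0731) or naive replicate 1 (0.122) or 2 (0.124).

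Venus-high minus PD1-low Th at Itgb1 1426918_at was 2.27 ± 0.79 and did not pass (adjusted p = 0.157), with 3.38 in batch 2 and 1.86 in batch 3, and with the batch term it was 2.60 ± 0.45 (adjusted p = 0.00525). PD1-intermediate minus PD1-low Th was 3.05 ± 0.87 (adjusted p = 0.159), and 2.31 ± 0.51 with the batch term (adjusted p = 0.0356). Venus-high minus Venus-low Tfh was -0.79, -1.36 and -0.997 within the batches, so Itgb1 was lower on the Venus-high array of each while both groups were above naive cells. A further tested probe set, 1427771_x_at, read 2.41 to 7.32, with its lowest values in batch 2. Its Venus-high and naive arrays overlapped. Venus-high minus naive was 1.64 ± 1.41 there (adjusted p = 0.718), and 1.12 ± 0.37 with the batch term (adjusted p = 0.0563), neither past the threshold. Venus-high minus PD1-low Th was 1.81 ± 1.41 at 1427771_x_at (adjusted p = 0.67), and 1.38 ± 0.37 with the batch term (adjusted p = 0.0314). At 1452545_a_at that difference was 2.68 ± 0.93 (adjusted p = 0.153), and 3.02 ± 0.59 with the batch term (adjusted p = 0.00911). The remaining 3 probe sets stayed between 2.03 and 3.45.

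Itgal and Itgb2 encode the chains of LFA-1. Itgal 1435560_at read log2 14.03, 13.82 and 14.08 in Venus-high Tfh, 13.75, 13.59 and 13.99 in Venus-low Tfh and 14.02 and 13.93 in PD1-intermediate Th. It read 12.47 and 13.16 in PD1-low Th and 12.30 and 12.41 in naive cells. The CXCR5+ groups overlapped and lay above both others. Venus-high minus naive was 1.62 ± 0.26 (adjusted p = 0.00502), 3.08-fold higher, and the call held without any 1 array (adjusted p up to 0.0472). Against PD1-low Th the difference was 1.17 ± 0.26 (adjusted p = 0.0306), 2.25-fold, and was lost without any of 8 arrays, the 3 Venus-high, both PD1-intermediate and both naive arrays and PD1-low replicate 1 (adjusted p from 0.0506 to 0.237). PD1-intermediate minus PD1-low Th was 1.16 ± 0.29 (adjusted p = 0.098), and 0.96 ± 0.16 with the batch term (adjusted p = 0.0155).

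At Itgal 1425367_at Venus-high Tfh read 10.23, 10.80 and 11.24, Venus-low Tfh 10.52, 10.77 and 11.35, PD1-intermediate Th 11.15 and 10.82, PD1-low Th 8.47 and 9.21 and naive cells 8.07 and 7.71. Here too the 3 CXCR5+ groups overlapped above the others, and PD1-low Th lay above naive cells. Venus-high Tfh exceeded naive cells by 2.86 ± 0.40 (adjusted p = 0.00219), a call that held without any 1 array (adjusted p up to 0.026). It exceeded PD1-low Th by 1.92 ± 0.40 (adjusted p = 0.0211), lost without Venus-high replicate 2 (0.0671) or 3 (0.0532) or PD1-low replicate 1 (0.178). PD1-intermediate minus PD1-low Th was 2.15 ± 0.44 (adjusted p = 0.0424), 4.42-fold, and was kept only without Venus-high replicate 1 or 3 or Venus-low replicate 3, being lost without any other array (adjusted p from 0.057 to 0.36).

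Itgb2 1450678_at read log2 13.70, 13.54 and 13.48 in Venus-high Tfh, 13.62, 13.27 and 13.42 in Venus-low Tfh, 13.65 and 13.58 in PD1-intermediate Th, 13.12 and 13.38 in PD1-low Th and 13.61 and 13.08 in naive cells. Naive cells overlapped every other group. Venus-high minus naive was 0.23 ± 0.24 (adjusted p = 0.823) and Venus-high minus PD1-low Th 0.32 ± 0.24 (adjusted p = 0.655), so within LFA-1 the steps past the threshold were those of Itgal.

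**Figure D3:**
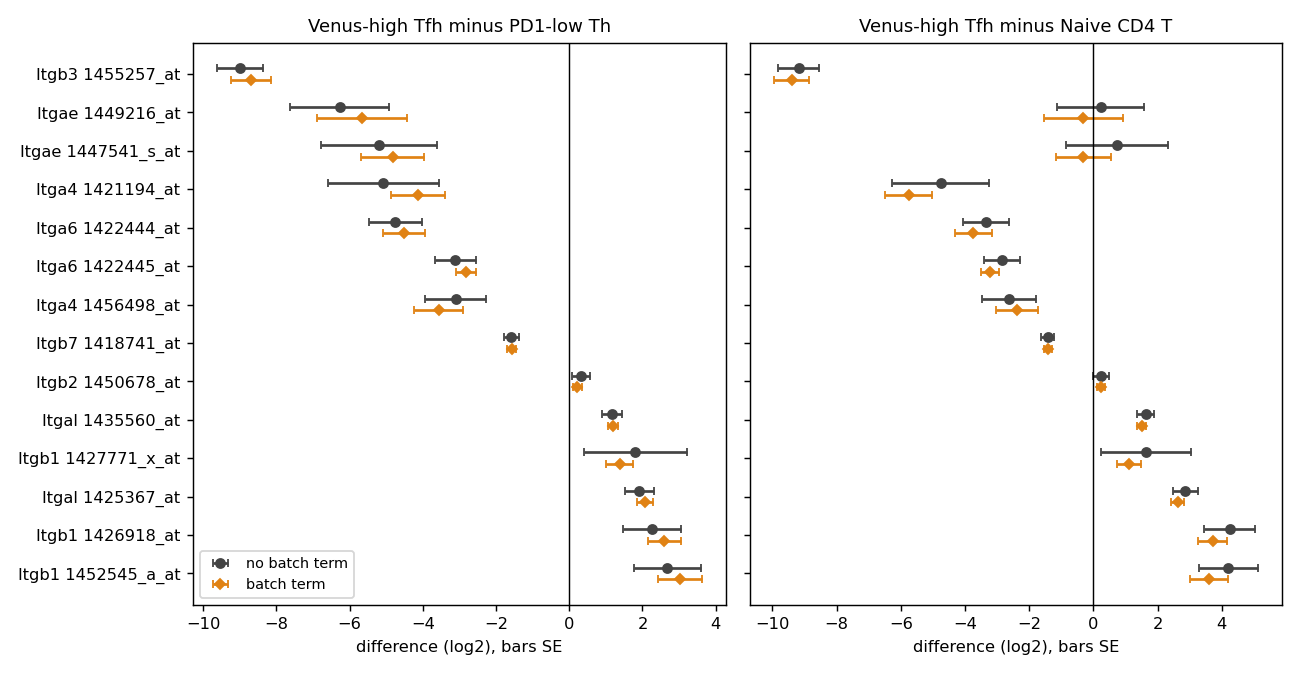
Log2 difference (x axis) of Venus-high Tfh from PD1-low Th (left) and from naive cells (right) for the 14 tested integrin probe sets that were not displaced (y axis), with SE as bars, without (circles) and with (diamonds) the batch term. Itgb3, Itga4, Itga6 and Itgb7 lie left of 0 in both panels and Itgal and Itgb1 right of it, while the Itgae bars include 0 against naive cells and lie left of it against PD1-low Th.

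Itgav, the alpha partner of the Itgb3 and Itgb8 chains, had 5 probe sets, of which the 3 tested were all displaced and are read within a batch only. At 1452784_at batch 1 read log2 13.68 in Venus-high Tfh, 13.14 in Venus-low Tfh and 12.84 in naive cells. Batch 3 read 13.96 in Venus-high Tfh, 13.53 in Venus-low Tfh, 13.30 and 13.29 in PD1-intermediate Th and 13.10 in PD1-low Th. The Venus-high array was the highest in both, above Venus-low Tfh by 0.55 and 0.43. In batch 2 this probe set was below log2 5 on all 4 arrays, at 3.89 in Venus-high Tfh, 3.90 in Venus-low Tfh, 4.44 in PD1-low Th and 4.30 in naive cells, which gives no order. There 1432678_at read 13.34 in Venus-high Tfh, 13.09 in Venus-low Tfh, 12.53 in PD1-low Th and 12.66 in naive cells, with the limit on batch 2 probe set names given above. Outside batch 2 that probe set was below log2 5 except on Venus-high replicate 3, at 5.65. Each of these values compares 1 array with 1 array, and no Itgav probe set was called in any of the 6 comparisons, with or without the batch term. Of the other Itgav probe sets, 1432679_at was above log2 5 only in batch 1, where it read 7.68 to 8.12, and 1421198_at and 1432296_a_at were not tested, the latter with 1 array above log2 5, Venus-high replicate 3 at 5.89.

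Itgb8, the beta chain of the TGF-beta binding receptor, had 1 probe set, which was displaced and to which the same limit applies. In batch 1 it read log2 9.68 in Venus-high Tfh, 8.21 in Venus-low Tfh and 2.98 in naive cells, and in batch 2 the values were 2.14, 7.20 and 2.21, with 2.16 in PD1-low Th. In batch 3 it read 12.47 in Venus-high Tfh, 11.43 in Venus-low Tfh, 8.73 and 8.06 in PD1-intermediate Th and 7.93 in PD1-low Th. Venus-high minus Venus-low was 1.47 and 1.04 in batches 1 and 3 and -5.06 in batch 2, so Venus-high replicate 2 decides the direction. The difference from naive cells was 5.51 ± 2.88 (adjusted p = 0.382), and 3.87 ± 1.52 with the batch term (adjusted p = 0.0944).

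**Figure D4:**
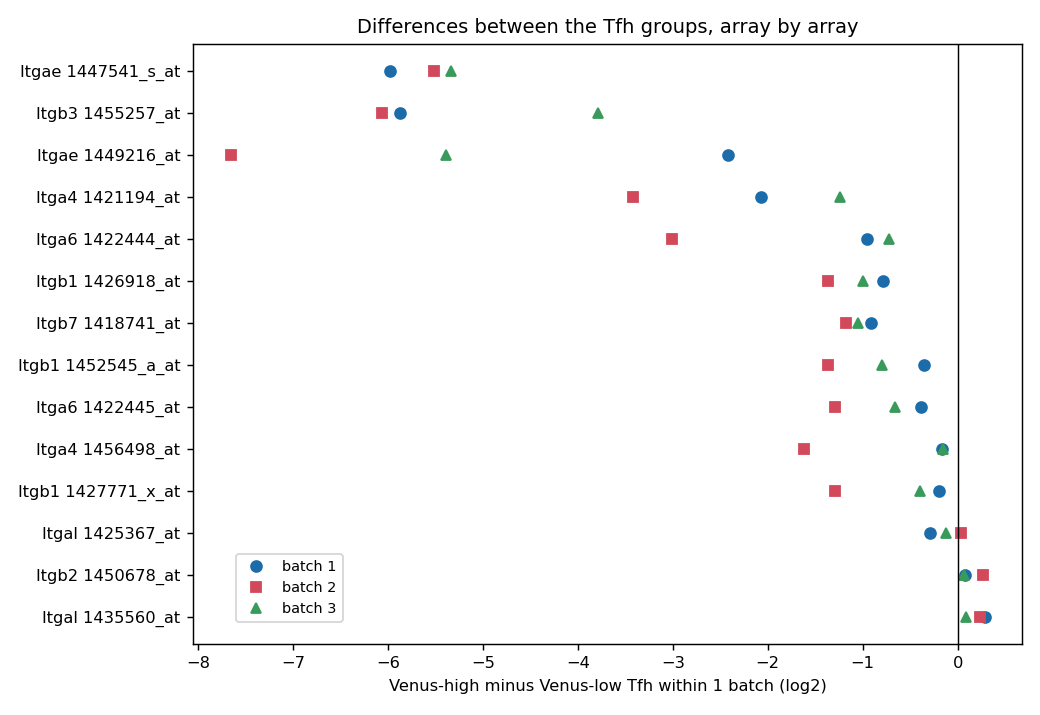
Venus-high minus Venus-low Tfh (x axis, log2) for the 14 tested integrin probe sets that were not displaced (y axis), with 1 point for each batch, so each point compares 1 array with 1 array. In 11 of the 14 all 3 points lie below 0 (in 3 of these with 1 batch in which both arrays were below log2 5), in 2 (Itgb2 and Itgal 1435560_at) all lie above it, and Itgal 1425367_at has 1 point above 0.

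Among the 14 tested probe sets that were not displaced, 11 were lower on the Venus-high array in all 3 batches, 2 were higher in all 3 and 1 was mixed, which describes the contrast on which members were chosen. Of the 11, 3 (both Itga4 probe sets and Itgae 1449216_at) had 1 batch in which both arrays were below log2 5, where the order has no meaning, which leaves 8 with an array above it in every batch.

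Of 16 other integrin subunits listed for comparison, 14 were on the array and 4, Itga1, Itga3, Itga5 and Itgb5, were tested. Itga5, the fibronectin receptor chain, read log2 2.39 to 2.60 in Venus-high Tfh, 4.32 to 5.66 in PD1-low Th and 4.50 to 6.16 in naive cells. It passed the filter through 1 PD1-low and 1 naive array alone and lay close to log2 5 there, so no test of it is read.

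Of 25 genes of integrin ligands and latent TGF-beta, 23 were on the array and 7 tested, of which 2 were higher and 0 lower in each of PD1-intermediate against PD1-low Th, Venus-high Tfh against PD1-low Th and Venus-high Tfh against naive cells, where the medians over the 7 were 0.63, 0.04 and 0.03. These 2 of 7 (28.6%) stand beside 2.49%, 7.62% and 9.52% of all probe sets. The list share takes 1 probe set a gene, the tested one with the highest mean, so the shares are of unlike units. With the batch term the counts were 2 higher and 0 lower in the first comparison (28.6%, against 9.07% of all) and 2 higher and 1 lower in each of the others (42.9%, against 28.7% and 34.3%), the 1 being Icam2, which binds LFA-1. Both called genes, Tgfb3 and Tnc, passed the filter through CXCR5+ arrays alone. No share or test that holds them is therefore read, and their levels are given as a description. Tgfb3, a TGF-beta made with a latency peptide that integrins bind, had a log2 signal of 7.75 to 8.46 in Venus-high Tfh, 7.35 to 8.75 in Venus-low Tfh and a mean of 8.24 in PD1-intermediate Th, and of at most 2.11 in PD1-low Th and 2.05 in naive cells. Against log2 5 its signal in PD1-intermediate Th exceeded that in PD1-low Th at least 9.43-fold. It was at least 8.50-fold higher in Venus-high Tfh than in naive cells. Tnc, the matrix protein tenascin-C, ran from 9.97 to 11.1 in Venus-high Tfh over 8.06 to 9.87 in Venus-low Tfh and 5.57 to 5.98 in PD1-intermediate Th to at most 2.26 in PD1-low Th and naive cells. Tnc was at least 49.0-fold higher in Venus-high Tfh than in naive cells and exceeded its PD1-low level at least 1.71-fold in PD1-intermediate Th.

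Of 46 genes that switch integrins on or tie them to actin, 41 were on the array and 32 tested. Venus-high Tfh had 1 higher and 2 lower than PD1-low Th (7 and 5 with the batch term) and 3 higher and 2 lower than naive cells (6 and 6), with medians over the 32 of 0.06 and 0.15. Against PD1-low Th these are 9.38% of the list beside 7.62% of all probe sets, and 37.5% beside 28.7% with the batch term, and against naive cells 15.6% beside 9.52%, and 37.5% beside 34.3%, shares near the background. Here too the list share takes only the probe set of each gene with the highest mean, unlike the background, so nothing is read from the counts. Rasgrp2, the exchange factor that activates Rap1 and through it integrins, had a log2 signal of 4.20 to 6.50 in Venus-high Tfh, 7.63 to 10.4 in Venus-low Tfh, 9.37 to 10.5 in PD1-intermediate Th, 12.4 to 12.7 in PD1-low Th and 12.6 to 12.8 in naive cells. Venus-high minus PD1-low Th was -7.27 ± 0.86 (adjusted p = 0.00126), and Venus-high minus naive -7.45 ± 0.86 (adjusted p = 0.000858), both kept without any 1 array. The levels of Rasgrp2 stood in nearly the order of Itgb3, apart from Venus-low Tfh and PD1-intermediate Th, whose arrays overlapped for Rasgrp2.

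Actn1, the alpha-actinin that links integrin tails to actin, was at 9.23 to 10.0 in Venus-high Tfh and 13.0 to 13.5 in naive cells, and Venus-high minus naive was -3.61 ± 0.32 (adjusted p = 0.00019) and minus PD1-low Th -3.67 ± 0.32 (adjusted p = 0.000233). Fyn, a Src family kinase that acts at integrins, was the 1 called higher than in both, by 1.55 ± 0.22 against naive cells (adjusted p = 0.00254) and 1.14 ± 0.22 against PD1-low Th (adjusted p = 0.0154), the latter lost without Venus-high replicate 2 or either PD1-low array (up to 0.114). Sipa1, which switches Rap1 off, was higher than in naive cells by 1.12 ± 0.23 (adjusted p = 0.0174), lost without Venus-high replicate 2 or naive replicate 1 (up to 0.151). Rap1a, a Rap1 GTPase itself, was the third called higher than in naive cells, by 1.07 ± 0.28 (adjusted p = 0.0464), lost without any of 10 arrays (up to 0.247). The genes of this list called only with the batch term are in the counts above.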

How the data were processed

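Amplified RNA (20 ng a sample, per the labels' protocols) from 12 pools of sorted cells was read on Affymetrix arrays. The values are log2 signals per probe set that the authors made with GCRMA, a background correction from probe sequence with quantile normalization and summary, per the submitters' processing notes. Its version, and which arrays were normalized together, are not given in the sources used here, nor are detection calls. Differences were taken within a probe set, since each has its own scale. Of 45101 probe sets, 34958 had 1 gene symbol, 932 several and 9211 none.

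Probe sets at log2 5 or more on at least 2 arrays were fitted with limma 3.58.1 (R 4.3.3) in 1 model of 5 groups, with 7 residual degrees of freedom, or 5 with the batch as a term. Tests were 2-sided with Benjamini-Hochberg adjustment over all 17901 probe sets, and 6 comparisons were made. A group below log2 5 on all arrays gave a fold as a bound against 5. Batches are clusters of array quantiles, and their number, 3, and the limit of 3 log2 units for displaced probe sets were set by choice. Replicate numbers were taken to pair the Tfh arrays, since same-numbered arrays fell in 1 batch. Their deviations from group means correlated at 0.937, 0.967 and 0.94. The batch differences alone can give such values, so they do not show that paired arrays share mice. For the other groups the numbers did not mark a batch.

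The members and gene lists were chosen with earlier results of these data known. All member probe sets are named, list genes past the threshold up to 4 a list and comparison, and the 5 genes most like Itgb3 and Itgb7. Rap1a and Icam2 are named beyond that rule. The fit was also run on simulated data with independent noise, for Venus-high Tfh against PD1-low Th only. Its outcome is not used here. Alternatives changed the filter, floor, normalization, variance model, block, probe sets and arrays. Figures were drawn in Python 3.11.15 with matplotlib 3.10.9.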

Additional observations from a re-analysis of the deposited data

How the results depend on the processing

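Counts of integrin probe sets called, for Venus-high against Venus-low Tfh, PD1-intermediate against PD1-low Th, Venus-high Tfh against PD1-low Th and Venus-high Tfh against naive cells in that order, were 1, 2, 7 and 8 in the reported fit, Itgb3 and Itgb7 included. They were 4, 6, 15 and 12 with the batch term (2080, 1623, 5142 and 6132 of all probe sets, against 109, 445, 1364 and 1704), 5, 8, 15 and 12 with the batch as a random block, and 4, 6, 13 and 11 with the batch term and without displaced probe sets, an alternative chosen after seeing the data. Fits of only the 2 groups compared gave 0, 0, 1 and 3 (0, 41, 403 and 642 of all), and fits without the batch 2 arrays 0, 0, 1 and 1 (0, 107, 365 and 593), both from fewer arrays. With 1 probe set a gene they were 2, 1, 4 and 5, and after quantile normalization again 1, 4, 11 and 9. For the Tfh groups the count was 2 with no filter, with log2 6 on at least 3 arrays, with values below log2 5 set to 5, with a mean-variance trend and without displaced probe sets. The replicate block gave 2, 2, 9 and 9, and 4 on the Tfh arrays alone, which was chosen after seeing the data. It also gave 2 between Venus-low Tfh and PD1-intermediate Th, both of Itga6, against 0 in the reported fit (3895 against 48 of all), although the numbers of PD1-intermediate arrays mark no batch. Leaving out each array in turn gave 0 to 2, 0 to 4, 4 to 7 and 4 to 8, and 0 to 1 between PD1-low Th and naive cells, where the 1 came without PD1-low replicate 1. The cause of these changes was not tested.

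Of 24 single differences called in the reported or the batch-term fit, none changed direction in 586 refits, 460 kept their side of the threshold, 57 passed newly and 69 no longer passed. The batch-term fit is among these refits, so its 11 new passes were fixed by the choice of differences. The batch as a random block and the batch term without displaced probe sets gave 11 each. Both Itgae differences from PD1-low Th are among the 24, though their tests are not read. The number of arrays, 2 in 3 of the groups, limits the precision, and signals under log2 5 give no order.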
